A study of Mus musculus with 8 samples.

Results

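The axon guidance genes examined here encode ligands and receptors of 4 families: the ephrins and their Eph receptors, the semaphorins and neuropilins, the slits and Robo receptors, and the netrins with their receptors Dcc and Unc5a to Unc5d. The set holds 53 autosomal genes, 28 for ligands and 25 for receptors, taken from a list of gene names that leaves out the class 4 semaphorins and the plexins. A region of the deposited H3K27me3 table was taken where it overlapped the GRCm38 body of a member gene or the 5 kb on either side, and each region was counted once. By this rule 69 of the 13585 regions were taken, out of 11707 on autosomes, and they fell at 41 of the 53 genes. The ephrin family held 28 of these regions, the slit/robo family 17, the semaphorin family 15 and the netrin family 9.

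H3K27me3, trimethylation of lysine 27 of histone H3, was measured by ChIP-seq in primary neural stem cells (NSCs) derived at E14.5 from the cortex of female C57BL/6J embryos and kept for fewer than 10 passages. The WT cells are labelled Smchd1GFP+/+ and the mutant cells Smchd1GFPMommeD43/MommeD43, so endogenous Smchd1 carried a GFP tag in both groups and the mutant cells were homozygous for the MommeD43 missense allele. SMCHD1 is a chromatin protein with a role in gene silencing. Each genotype had 3 ChIP libraries from separate cell lines and 1 whole cell extract library. The comparison asked whether H3K27me3 at these genes differed between WT and MommeD43 NSCs.

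Growing axons steer by extracellular cues that attract or repel the growth cone. Ephrins stay bound to the cell surface and signal on contact with Eph receptor tyrosine kinases, whereas slits, netrins and class 3 semaphorins are secreted. Slits repel axons through Robo receptors, netrin-1 attracts through Dcc and repels through Unc5 receptors, and neuropilins bind class 3 semaphorins together with plexins. H3K27me3 is laid down by Polycomb repressive complex 2 and marks many silent developmental genes, often at CpG-rich promoters.

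The table gives 1 log2 value per region and genotype, which is the authors' mean over the 3 libraries, so no value has an SD and no difference could be tested between cell lines. Differences below are on the log2 scale, with the WT value subtracted from that of MommeD43, and a difference of 1 is a change of 2-fold. Counting error is the standard error that the recovered read numbers alone would give to a difference. It covers counting error only and no variation between cell lines. The member regions rested on 11.5 to 4981 reads per library in WT, with a median of 165, and on 32.7 to 7797 in MommeD43, with a median of 300. Their counting error ran from 0.015 to 0.29 with a median of 0.085. Densities in normalized counts per kb of region are given wherever levels of different genes are set side by side. In bulk cells, a lower share of cells carrying the mark and less mark per cell cannot be told apart.

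The cell type was checked by whether a region covered the starts of marker genes, since H3K27me3 at a gene start goes with silence. Among NSC markers, Nes, Hes1, Hes5 and Pax6 had a region over the start, while Sox2, Vim, Fabp7, Slc1a3, Olig2, Egfr and Notch1 had none. Of 8 markers of differentiated neurons, 6 had such a region, and of 10 markers of other lineages, 6 had one. Over all autosomal protein-coding genes the share was 28.9%. As NSC markers stood on both sides, the check does not establish the cell type.

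The promoters of 5 guidance genes are shown because the results turn on their loci. Slit3, Ephb4 and Sema6c had the gene-start regions that were higher in MommeD43 by at least 1, Epha7 had the gene-start region that was lower by as much, and Nrp1 had no region. Each sequence runs 5′ to 3′ on the strand of the gene, from 250 bases before the RefSeq start to 50 bases after it, on GRCm38.p6, with each CG dinucleotide in capitals.
Slit3, chr11:35121206-35121505, plus strand: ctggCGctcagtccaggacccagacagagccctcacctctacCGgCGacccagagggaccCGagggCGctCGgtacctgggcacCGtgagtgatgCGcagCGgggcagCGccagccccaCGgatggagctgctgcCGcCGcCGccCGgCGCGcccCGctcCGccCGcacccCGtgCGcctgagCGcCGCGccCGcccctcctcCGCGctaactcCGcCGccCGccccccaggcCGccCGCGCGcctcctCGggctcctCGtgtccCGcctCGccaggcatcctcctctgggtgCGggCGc
Ephb4, chr5:137349859-137350158, plus strand: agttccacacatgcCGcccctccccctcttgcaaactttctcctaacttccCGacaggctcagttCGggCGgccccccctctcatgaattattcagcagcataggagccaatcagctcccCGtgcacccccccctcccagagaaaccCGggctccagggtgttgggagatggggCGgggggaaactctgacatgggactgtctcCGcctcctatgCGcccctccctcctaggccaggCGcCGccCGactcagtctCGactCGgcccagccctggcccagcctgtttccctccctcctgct
Sema6c, chr3:95160170-95160469, plus strand: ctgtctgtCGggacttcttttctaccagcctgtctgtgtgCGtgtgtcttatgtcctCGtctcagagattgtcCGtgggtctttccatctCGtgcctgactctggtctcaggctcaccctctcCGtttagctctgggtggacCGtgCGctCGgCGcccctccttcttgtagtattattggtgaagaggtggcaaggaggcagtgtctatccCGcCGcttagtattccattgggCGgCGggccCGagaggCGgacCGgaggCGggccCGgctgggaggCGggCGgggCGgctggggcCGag
Epha7, chr4:28812881-28813180, plus strand: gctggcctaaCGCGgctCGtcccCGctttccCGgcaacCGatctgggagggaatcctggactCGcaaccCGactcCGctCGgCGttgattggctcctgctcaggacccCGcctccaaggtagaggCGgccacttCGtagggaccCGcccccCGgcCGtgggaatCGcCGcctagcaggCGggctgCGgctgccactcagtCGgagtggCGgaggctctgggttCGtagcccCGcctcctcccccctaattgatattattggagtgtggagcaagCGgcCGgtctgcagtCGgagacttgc
Nrp1, chr8:128358823-128359122, plus strand: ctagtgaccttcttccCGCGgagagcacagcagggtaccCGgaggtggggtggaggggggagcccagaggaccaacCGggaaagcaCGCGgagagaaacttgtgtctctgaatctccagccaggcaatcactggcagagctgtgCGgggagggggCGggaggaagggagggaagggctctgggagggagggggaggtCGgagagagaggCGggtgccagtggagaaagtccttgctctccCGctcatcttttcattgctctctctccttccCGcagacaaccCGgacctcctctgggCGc
The letters CG, which read the same on both strands, occurred 41 times in the Slit3 promoter, 28 times in that of Epha7, 23 times in that of Sema6c and 14 times each in those of Ephb4 and Nrp1. Promoters were called CpG-rich where the GC content was at least 50% and the ratio of observed to expected CG was at least 0.6. By that measure the Slit3, Sema6c and Epha7 promoters were CpG-rich, and those of Ephb4 and Nrp1 fell below the ratio at 0.48 and 0.47. A RefSeq promoter was matched for 45 of the 53 genes. Of these, 30 (66.7%) were CpG-rich, against 33.5% of all 32851 RefSeq promoters. The latter were not restricted to autosomal or protein-coding genes or to a single promoter per gene. The sets are therefore unlike, and no enrichment can be read from these shares. The share was 21 of 29 (72.4%) where a region covered the gene start and 9 of 16 (56.3%) where none did. CpG-rich promoters also occurred at 6 of the 10 matched genes with no region.

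H3K27me3 regions were common at the genes of ligands and of receptors alike. A region lay within 5 kb of 77.4% of the guidance genes, and 34 genes (64.2%) had one over the annotated start. Among all 20807 autosomal protein-coding genes, 42.6% had a region and 28.9% had one over the start. Gene length was not matched, and a longer gene has more room for a region. Robo1, for example, spans 738 kb, with 3.35% of its body covered. Ligand genes had a region over the start in 18 of 28 cases and receptor genes in 16 of 25. By family, the start was covered at 15 of 21 ephrin genes, 9 of 16 semaphorin genes, 4 of 7 slit/robo genes and 6 of 9 netrin genes.

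**Figure D1:**
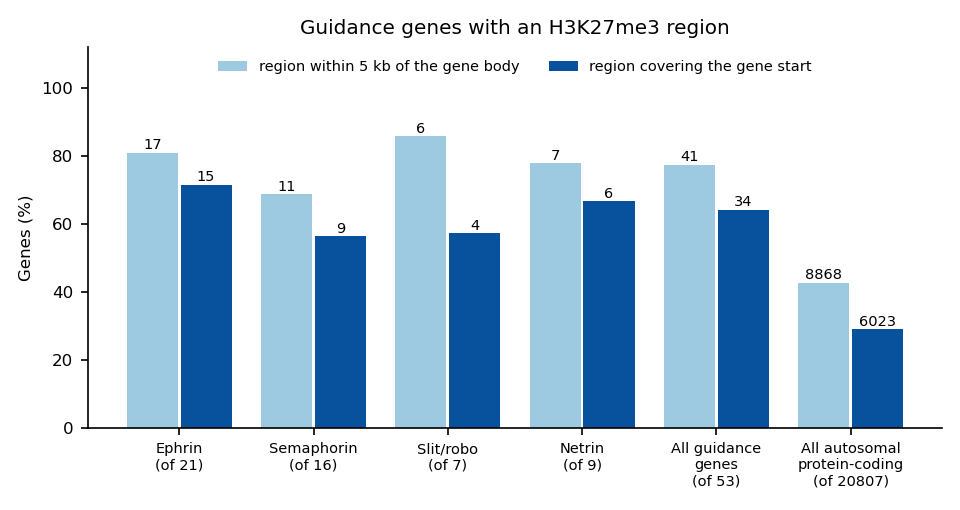
Share of genes, in percent, with an H3K27me3 region within 5 kb of the gene body (light bars) or over the annotated gene start (dark bars), by family, for all 53 guidance genes and for all autosomal protein-coding genes. The number over each bar is the gene count, and every family stood above the 28.9% of all autosomal protein-coding genes with a covered start.

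The genes with no region were Epha1, Epha5, Ephb6 and Efnb2 of the ephrin family, Sema3c, Sema3e, Sema6a, Sema6d and Nrp1 of the semaphorin family, Robo4, Ntn4 and Dcc. Several of these lay far from any region. The nearest region was 1755 kb from the start of Epha5, 1697 kb from that of Dcc, the receptor through which netrin-1 attracts axons, and 1453 kb from that of Sema3c. The start of Ephb6, an Eph receptor without kinase activity, was the nearest to one, at 6.18 kb, followed by that of Robo4 at 26.2 kb. The neuropilins differed from each other, as Nrp2 had regions over its start and in its body whereas the region nearest to the Nrp1 start was 158 kb from it.

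At 7 genes the regions lay in the body or flank and left the start uncovered: Sema3a, Sema3b, Efna2, Epha3, Robo1, Robo2 and Ntn5. Robo1 and Robo2, receptors for slits, had regions deep inside the gene, from 373 to 399 kb and from 369 to 379 kb after the start. The RefSeq start of Robo1 lay 354843 bases inside the GENCODE gene, which places its regions after that start as well. Among the 69 regions, 32 covered a gene start, 2 covered the start of another transcript of a member gene, 32 lay in the body and 3 lay in the flank. Adjacent genes shared a region in a pair of cases, Efna3 with Efna4 and Epha8 with Ephb2. Starts of genes outside the set also lay in regions of Efnb3, Ntn3, Ntn5, Sema3f, Sema3g, Sema6b and the region of Epha8 and Ephb2, and the mark there cannot be assigned to either gene.

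Guidance regions were somewhat longer and richer in GC than others. Their lengths ran from 5.3 to 235.7 kb with a median of 14.2 kb, against 10.4 kb for the 11638 other autosomal regions. Median GC content was 49.6% against 46.3%, and CG dinucleotides stood at 16.1 against 12.3 per kb. The median density in WT was alike, at 36.4 normalized counts per kb for guidance regions and 36.0 for the others. In MommeD43 it was 45.7 against 37.0 normalized counts per kb.

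With the authors' scaling, most guidance regions were higher in MommeD43 than in WT. The difference was above 0 at 54 of the 69 regions (78.3%), against 57.7% of all autosomal regions, and below 0 at 15, with a median of 0.33 and quartiles of 0.038 and 0.55. Over all autosomal regions the median was 0.075, with quartiles of -0.21 and 0.33. The difference lay outside its 95% counting interval at 43 of the higher regions (62.3% of the 69, against 37.9% of all autosomal regions) and at 9 of the lower ones (13.0%, against 25.1%). At least 2-fold higher values were seen at 8 regions (11.6%), against 2.28% of all autosomal regions, and 6 of the 8 belonged to Slit3. A region could enter through a peak of either genotype alone, so such counts are not independent of how regions were chosen. The 8 became 3 with totals set equal and 4 with a pseudocount of 16. At least 2-fold lower values were seen at 3 regions (4.35%), against 2.93% of all autosomal regions, and at 0 with the GC trend removed. With the totals of all regions set equal, which lowers every difference by 0.24, the median over the 69 regions was 0.093, and 38 were above 0 and 31 below (55.1% above, against 32.9% of all autosomal regions). With the GC trend removed, 38 were again above 0 and 31 below, against 49.9% above over all autosomal regions, and the median was 0.037. Under the scaling of the authors, the difference stood at 0.44 in the median over the 36 ligand regions and at 0.18 over the 33 receptor regions. Of the ligand regions 9 belonged to Slit3, and the other 27 had a median of 0.27.

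The difference between genotypes followed GC content across the table, and this bears on the guidance regions because they were GC-rich. Over the 11638 other autosomal regions, Spearman's rho between GC content and difference was 0.58. Their median difference went from -1.31 at 34 to 36% GC to 0.00045 at 44 to 46% and 0.47 at 54 to 56%. Over the guidance regions rho was 0.24, and 0.45 over the 60 regions outside Slit3. These correlations are across regions, which share the same libraries and are not independent. Whether the relation with GC content arose in the cells, in the library preparation or in the sequencing was not tested.

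Each guidance region was therefore set against all other autosomal regions within 2 percentage points of its GC content and 0.5 of its mean log2 value, called similar regions below. The excess is the region's difference minus the median difference of its similar regions. The median excess over the 69 guidance regions was 0.088, with 39 regions above 0 and 30 below. Of the 69, 26 (37.7%) lay above the quartiles of their similar regions, 28 (40.6%) inside them and 15 (21.7%) below. All 9 Slit3 regions were among the 26. An excess of at least 1 was found at 6 guidance regions (8.70%), against 1.72% of all autosomal regions. Most of the 6 belonged to Slit3, with an excess of 1.71, 1.18, 1.44 and 1.14. The others were a Robo1 region at 1.204 and the Sema3a region at 1.16. An excess of -1 or lower was found at 1 region, against 0.735% of all autosomal regions. Without the 9 regions of Slit3 the median excess was -0.0043, with 30 regions above 0 and 30 below, and the median difference was 0.24. By family, the median excess was 0.70 for slit/robo, 0.17 for semaphorin, -0.015 for netrin and -0.10 for ephrin regions. Outside Slit3, the slit/robo excess was -0.32, -0.39 and -0.20 at Slit1, 0.49 at Slit2 and 0.53 at Robo3. It was 0.90 and 1.204 at Robo1 and -0.30 at Robo2, so the family value of 0.70 leans on Slit3. Without Slit3, the median difference of the slit/robo regions was 0.28 in place of 0.69. Removing the running median over GC content from every difference turned the sign at 11 of the 41 named regions, the starts of Epha8 and Ephb2, Ephb1, Ephb3, Efna5, Sema3f, Sema3g, Sema6b, Sema7a, Ntn3, Unc5d and Slit1, all of which lay between -0.14 and 0.46 before it. Setting totals equal turned it at 6, the starts of Ephb1, Ephb3, Sema3d, Sema5a, Sema7a and Slit1, and setting the autosomal median to 0 turned it at Ephb1, Sema3d and Sema7a.

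**Figure D2:**
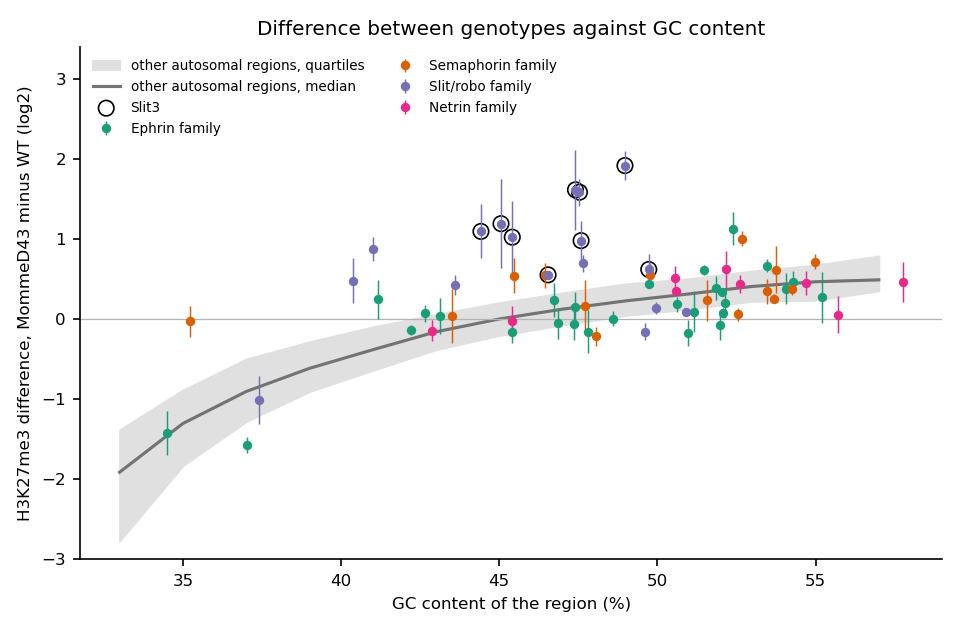
Difference in H3K27me3 (MommeD43 minus WT, log2) of each guidance region against its GC content in percent, colored by family, with 95% counting intervals as bars and Slit3 regions circled. The grey line and band give the median and quartiles of the other autosomal regions in bins of 2 percentage points, which climb from -1.31 at 34 to 36% GC to 0.47 at 54 to 56%.

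**Figure D3:**
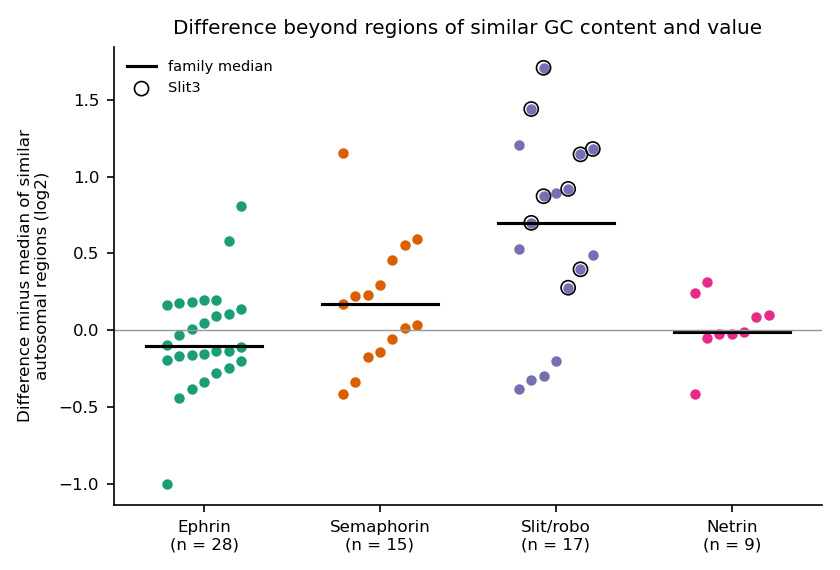
Excess of each guidance region, which is its log2 difference minus the median of autosomal regions of similar GC content and value, by family, with the family median as a black bar and Slit3 regions circled. All 9 Slit3 regions lie above 0, and the lowest point is the Epha7 start region at -1.004.

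Slit3, a secreted repellent that binds Robo receptors, had the largest differences among the guidance genes. The gene spans chr11:35121224-35708507 on the plus strand, and 9 regions covered 55.9% of its 587 kb body. Over its start, at chr11:35115201-35129350, the value was 8.29 in WT and 10.20 in MommeD43, or 22.1 and 83.4 normalized counts per kb. The difference of 1.92, with a counting error of 0.094, was a 3.78-fold higher value and exceeded the median of 728 similar regions by 1.71. The printed Slit3 promoter, with 41 CG dinucleotides, lies inside this region.

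All 8 further Slit3 regions lay inside the gene and were also higher in MommeD43. In the order of transcription their differences were 1.19, 1.61, 1.59, 1.10, 1.02, 0.98, 0.55 and 0.62. Each region nearer the 5′ end thus had a larger difference than the 2 at the 3′ end. The region at chr11:35270001-35303050, wholly intronic, went from 12.0 normalized counts per kb in WT to 36.0 in MommeD43. Regions with differences of 1.19 and 1.61 rested on only 11.5 and 13.7 reads per library in WT, with counting errors of 0.29 and 0.25.

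The longest guidance region of all lay in the 3′ part of Slit3, at chr11:35438601-35674300. Over its 235.7 kb the value was 13.49 in WT and 14.04 in MommeD43, or 48.7 and 71.4 normalized counts per kb, a difference of 0.55. In WT this long region was thus denser than the one over the gene start, and in MommeD43 the order was turned, with 83.4 over the start against 71.4. Every Slit3 region exceeded the median of its similar regions, by 0.28 at the least and by 0.92 in the median. The 5 regions within 500 kb of the gene were higher in MommeD43 too, with differences from 0.14 to 0.70, and none reached 1.

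**Figure D4:**
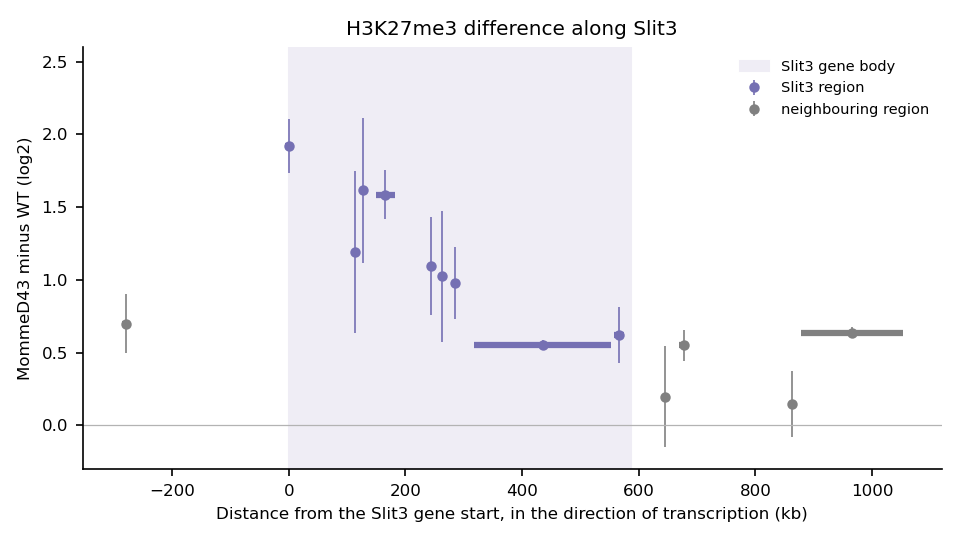
Difference in H3K27me3 (MommeD43 minus WT, log2) of the 9 Slit3 regions and 5 neighbouring regions against the distance of their centers from the gene start in kb. Horizontal bars give the length of a region and vertical bars the 95% counting interval, and the differences run from 1.92 at the start to 0.55 and 0.62 near the 3′ end.

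The other slits differed less. Slit1 was the gene of this family most fully covered, with 3 regions over 86.0% of its body, and its start region was at 87.9 normalized counts per kb in WT and 96.8 in MommeD43, a difference of 0.14. Its body regions had differences of 0.091 and -0.16, and all 3 lay below the quartiles of their similar regions. Slit2, a repellent at the midline, was at 76.8 and 103 normalized counts per kb over its start, a difference of 0.43 and an excess of 0.49. In WT the Slit3 start was thus the least dense of the 3 slit starts, and in MommeD43 the 3 densities lay between 83.4 and 103.

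Robo3, the Robo receptor that lets commissural axons cross the midline, had the densest region of the slit/robo family. Its start region, chr9:37428051-37441300, stood at 88.2 normalized counts per kb in WT and 143 in MommeD43, a difference of 0.69 with a counting error of 0.054 and an excess of 0.53. The Robo1 regions were higher by 0.48 and 0.87, whereas similar regions were lower in the median by 0.42 and 0.33, so that their excess was 0.90 and 1.204. Robo2 went the other way, from 27.2 to 13.5 normalized counts per kb at chr16:74033151-74042350. Its difference of -1.01, with a counting error of 0.15, lay inside the quartiles of 142 similar regions, whose median was -0.71, and became -0.12 once the GC trend was removed. Robo4, a receptor of blood vessels, had no region.

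In the ephrin family the Eph receptor regions had a median difference of 0.093 over 21 regions and the ephrin regions one of 0.27 over 7. The family median of 0.12 turned to -0.12 with totals set equal and to -0.095 with the GC trend removed. Epha7 and Epha3 had the family's differences below -1. Over the Epha7 start, chr4:28806801-28836400, the value was 11.53 in WT and 9.96 in MommeD43, or 99.9 and 33.7 normalized counts per kb. In WT it was thus among the densest guidance regions, and in MommeD43 it was at 0.337 of the WT value. The difference of -1.57 had a counting error of 0.051 and rested on 905 reads per library in WT and 378 in MommeD43. Only 15 similar regions were found, since few regions of 37.0% GC had so high a value, and their median was -0.57 with quartiles of -0.92 and 0.076. The excess of -1.004 was the lowest of the guidance regions, and with the GC trend removed the difference was -0.61. The 300 bases of promoter printed above had 67% GC, in contrast to the 29.6 kb region around them. The 2 regions within 500 kb of Epha7 had differences of -0.47 and -0.98.

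Epha3, whose start was uncovered, had its single region in the body at chr16:63804201-63817600. It went from 26.7 normalized counts per kb in WT to 9.93 in MommeD43, a difference of -1.43 with a counting error of 0.14. The 22 similar regions had a median of -1.18, and Epha3 lay inside their quartiles. With the GC trend removed, its difference was -0.39. Epha3, Epha7, Robo2 and Sema3a were the guidance genes with regions under 40% GC, and the median of these 4 regions was -1.22. The 746 other autosomal regions under 40% GC had a median of -0.73, and 661 of them were lower in MommeD43.

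Ephb4, a receptor for ephrin-B2 known for its role in veins, had the largest difference of the ephrin family in the other direction. Its only region, chr5:137344401-137355550 over the start, stood at 25.1 normalized counts per kb in WT and 55.04 in MommeD43. The difference was 1.13 with a counting error of 0.11, and the excess over 344 similar regions was 0.81. It became 0.76 once the GC trend was removed and 0.89 with totals set equal, both under 1. Within 500 kb there were 20 further regions, of which 18 were higher in MommeD43, with a median of 0.22 and a highest difference of 0.99. Efnb2, which encodes the ligand ephrin-B2, had no region.

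Epha10 had the densest guidance region in both genotypes, at 114 normalized counts per kb in WT and 156 in MommeD43, a difference of 0.44. The region shared by Epha8 and Ephb2, 171.65 kb at chr4:136814001-136985650 with the starts of both genes and of C1qa, C1qb and C1qc, stood at 94.9 and 120 normalized counts per kb, a difference of 0.33. Epha2 was at 64.7 and 103, a difference of 0.67. These 3 regions lay inside the quartiles of their similar regions.

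Epha4, Ephb1 and Ephb3 had differences near 0 at the start, of -0.16, 0.0063 and 0.093. Their densities in WT were 35.9, 81.4 and 33.7 normalized counts per kb. Epha4 and Ephb1, with an excess of -0.20 each, lay below the quartiles of their similar regions, and Ephb3 lay inside them. Epha6 was at 32.6 and 38.6, a difference of 0.24 at 41.2% GC, where 537 similar regions had a median of -0.34. It lay above their quartiles, and its excess of 0.58 was the second largest of the family. Regions of Ephb1 and Ephb2 lay close together: the 5 Ephb1 regions had differences from -0.063 to 0.24, and the 5 Ephb2 regions apart from the shared one had differences from -0.17 to 0.20. At Ephb2 all 6 regions had an excess below 0, from -0.44 to -0.098.

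Among the ephrin ligands, Efna5 had the highest density in WT. Its start region was at 102 normalized counts per kb in WT and 93.1 in MommeD43, a difference of -0.14 beside a median of -0.15 over its 68 similar regions. The region shared by Efna3 and Efna4 on chromosome 3 was at 80.8 and 123, a difference of 0.61. Its neighbour Efna1 was at 36.3 and 47.3, a difference of 0.38. Efnb3, a membrane-spanning ephrin of the midline, was at 36.4 and 50.3, a difference of 0.46. The region of Efna2 covered part of the body, with a difference of 0.27 and a counting error of 0.16.

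**Figure D5:**
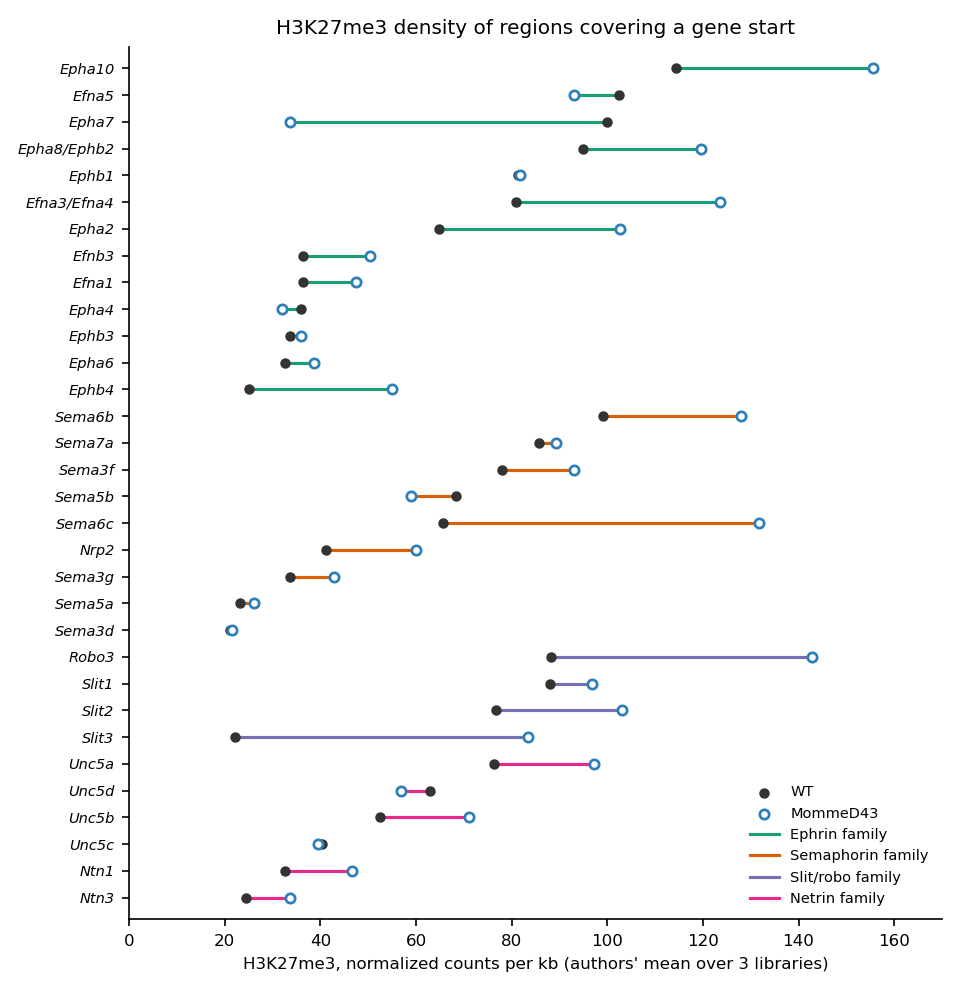
H3K27me3 density, in normalized counts per kb, of the 32 regions that cover the start of a guidance gene, in WT (filled) and MommeD43 (open), ordered by WT density within each family. The lines join the genotypes: Epha7 goes from 99.9 to 33.7, Slit3 from 22.1 to 83.4 and Sema6c from 65.7 to 132, whereas Ephb1 stays near 81.

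The semaphorin family had a median difference of 0.35 over 15 regions, 13 of them higher in MommeD43, against 57.7% of all autosomal regions. Their excess was above 0 at 10 regions and below 0 at 5. The median difference was 0.10 with totals set equal and 0.17 with the GC trend removed. Sema6c, a transmembrane semaphorin, had the largest difference. Its start region, chr3:95157801-95178700, covered the whole gene and went from 65.7 to 132 normalized counts per kb, a difference of 1.002 with a counting error of 0.048 and an excess of 0.60. With the GC trend removed the difference was 0.61. A further region before the gene was higher by 0.54. Of the 10 regions within 500 kb, 5 were higher in MommeD43, and their differences ran from -0.78 to 0.62.

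Sema6b had the densest semaphorin region in WT, while in MommeD43 the Sema6c start was denser. The Sema6b start region was at 99.0 and 128 normalized counts per kb, a difference of 0.37 inside the quartiles of its similar regions, and a region downstream of it was higher by 0.72. Sema6a and Sema6d had no region, so class 6 held both the semaphorin genes with the densest regions in either genotype and genes without a called region. Signal at genes without a region was not measured.

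Class 3 semaphorins, the secreted group, had no region that differed by 1 or more. Sema3f had the longest region of the family, 54.5 kb at chr9:107671251-107725750, at 78.0 and 93.1 normalized counts per kb, a difference of 0.26 with an excess of -0.18. Sema3g was at 33.6 and 42.7 over the start, a difference of 0.35 that exceeded its similar regions by 0.012. Sema3d was the least dense start of the guidance genes in WT, at 21.03 normalized counts per kb, and had a difference of 0.038 with a counting error of 0.17. Sema3b, next to Sema3f on chromosome 9, was higher by 0.62 in its body.

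Sema3a, the classical repellent of this class, differed from regions like it. Its region lay 181 to 195 kb after the start at 35.2% GC and had 26.9 normalized counts per kb in WT and 26.4 in MommeD43, a difference of -0.030 with a counting error of 0.10. The 19 similar regions had a median of -1.18 and an upper quartile of -0.82, so the excess was 1.16. The RefSeq start of Sema3a lay 271370 bases inside the GENCODE gene, so the region lies before that start.

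Of the remaining semaphorins, Sema7a, which is anchored to the membrane by a lipid, was at 85.7 and 89.2 normalized counts per kb, a difference of 0.057. Sema5a was at 23.3 and 26.1, a difference of 0.17. Sema5b was the semaphorin with the lowest difference, -0.22, at 68.4 and 58.9 normalized counts per kb, with an excess of -0.42. Nrp2, the neuropilin that binds Sema3f, was higher by 0.54 over the start and by 0.55 in the body, and both regions lay above the quartiles of their similar regions. Its start stood at 41.1 normalized counts per kb in WT and 60.0 in MommeD43.

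The netrin family had a median difference of 0.44 over 9 regions and a median excess near 0. The median difference was 0.20 with totals set equal and 0.014 with the GC trend removed. The 3 regions of netrin ligand genes were higher in MommeD43, although Ntn3 turned to -0.0024 with the GC trend removed. Ntn1 was at 32.5 and 46.6 normalized counts per kb over its start, a difference of 0.52 with an excess of 0.24. Ntn3 was at 24.4 and 33.5, a difference of 0.46 with an excess of -0.029, and a region in the flank of Ntn5, which covered none of that gene and held the start of Car11, was higher by 0.62.

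Among the repulsive netrin receptors, Unc5a had the longest and densest region, 143.6 kb at chr13:54843201-54986800. It stood at 76.3 normalized counts per kb in WT and 97.3 in MommeD43, a difference of 0.35 with an excess of -0.052. Unc5b was at 52.5 and 71.2 over the start, a difference of 0.44. Unc5c and Unc5d had differences of -0.029 and -0.14 at 45.4 and 42.9% GC, with counting errors of 0.096 and 0.066. The Unc5c difference thus lay within its counting error. All 4 start regions lay inside the quartiles of their similar regions. A further Unc5a region, over the start of another transcript, had a difference of 0.053 and lay below them.

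Other guidance genes that are not members of the set gave a comparison. Regions covered the start at 5 of 7 autosomal plexin genes, which encode semaphorin receptors, at 5 of 6 class 4 semaphorin genes, at 6 of 11 further receptor and ligand genes and at 12 of 30 genes for intracellular effectors. The median difference over their 68 regions was 0.020. Of the 68, 35 were higher and 33 lower in MommeD43, against 57.7% higher over all autosomal regions. The median excess of the 68 over similar regions was -0.14, with 18 above 0 and 50 below. Plexin regions had a median difference of -0.34 and a median excess of -0.51. Of the 16 plexin regions, 11 belonged to Plxna2 and Plxna4, with a median difference of -0.47, and the other 5 had a median of 0.66. Class 4 semaphorin regions had a median difference of 0.19 and a median excess of -0.041. None of the 68 was higher by at least 1, against 2.28% of all autosomal regions. At least 2-fold lower values were seen at 2, against 2.93%: the start of Chn1, an effector of Epha4 signalling, with a difference of -1.57, and a region of Plxna2 with -1.30.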

How the data were processed

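H3K27me3 ChIP libraries of 3 WT and 3 MommeD43 NSC lines and 1 whole cell extract library per genotype were grouped by their labels. Per the labels and the study's methods, the authors trimmed reads with Trim Galore 0.4.4, aligned them with Bowtie2 2.3.4.1 to GRCm38.p6 and counted extended reads in SeqMonk. The labels describe micrococcal nuclease digestion and the methods sonication, so the fragmentation is uncertain. Peaks were called per genotype on merged replicates against whole cell extract, widened and joined when close, so region boundaries depend on both genotypes. A region may also rest on a peak of either genotype alone. The deposited values are log2 counts scaled by the authors to library size and averaged over the libraries of a genotype, in 2 columns. They are not divided by length, and whole cell extract is not subtracted. Values of single libraries were not analysed here, so no region was tested, no p-value is given and n is 1 pooled value per genotype.

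Whole reads were recovered in part, because averaging logs over 3 libraries keeps the product of their counts. Where this product was below 30000, it lay within 0.1 of a whole number, after division by a constant of the genotype, for 1138 of 1139 regions in WT and 681 of 684 in MommeD43. A read then stood for 3.27 normalized counts (WT) or 2.63 (MommeD43), as a geometric mean. Counting errors follow from these reads and treat each as a separate molecule, which libraries without molecular identifiers do not guarantee.

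Region ends were taken from the coordinate columns. The end written in a region's name was another in 8582 of 13585 regions, 52 of them among the 69 guidance regions. Across regions, Pearson's r between log2 length and the mean value was 0.93 by the coordinate columns and 0.47 by the names. Lengths, GC content and densities rest on this choice. Genes came from GENCODE mouse release 21 and promoters from RefSeq, both on GRCm38, and 0 regions passed a chromosome end. Similar regions were all other autosomal regions within 2 percentage points of GC content and 0.5 of mean value, with none drawn at random. Named were regions over a gene start, the longest and densest of each family, those past a difference of 1, and the 5 largest differences in either direction with at least 50 reads in a genotype. The members, lists and measures were chosen with earlier results of these data known. A marker gene of the cell type check is not reported here. Alternatives were scaling to the total or to the autosomal median, removal of the running median over 40 bins of GC content, a pseudocount of 16, other flanks, gene-start regions alone, a filter on low values and other similarity windows. Leaving out Slit3, taking 1 median per gene and the family medians were added after the data were seen. Scripts were tested on simulated data and ran in Python 3.11.15 with scipy 1.17.1, pandas 2.3.3, numpy 2.4.6, pysam 0.24.0 and matplotlib 3.10.9.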

Additional observations from a re-analysis of the deposited data

How the results depend on the processing

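The median difference over the guidance regions, 0.33, stayed above 0 under every alternative run and was lowest at 0.093 with totals set equal and at 0.037 with the GC trend removed. The 8 regions higher by at least 1 became 3 with totals set equal, 4 with a pseudocount of 16, 4 among regions with a mean value at or above the table median, 3 among regions over a gene start, 2 without Slit3 and 2 with 1 median per gene over 40 genes or gene pairs. The 3 regions lower by at least 1 became 0 with the GC trend removed, 1 over gene starts and 1 at or above the table median. The ephrin median of 0.12 turned to -0.12 with totals set equal and to -0.095 with the GC trend removed, and the slit/robo median of 0.69 became 0.28 without Slit3. With totals set equal and with the GC trend removed, in this order, the netrin median of 0.44 became 0.20 and 0.014 and the semaphorin median of 0.35 became 0.10 and 0.17. Fewer regions entered where a subset was taken. For the other alternatives, the cause was not tested.

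With the GC trend removed, differences turned to -0.022 at Epha8 and Ephb2, 0.014 at Unc5d, -0.18 at Sema3f, -0.080 at Sema3g, -0.0024 at Ntn3, -0.079 at Sema6b, 0.12 at Efna5, -0.16 at Slit1, -0.33 at Sema7a, -0.18 at Ephb1 and -0.23 at Ephb3. With totals set equal they turned to -0.10 at Slit1, -0.18 at Sema7a, -0.24 at Ephb1, -0.20 at Sema3d, -0.076 at Sema5a and -0.15 at Ephb3. With the GC trend removed, the differences past 1 at the Slit3, Ephb4 and Sema6c starts became 1.72, 0.76 and 0.61, and those at Epha7, Epha3 and Robo2 became -0.61, -0.39 and -0.12, the last within its counting error of 0.15. No paired analysis was possible because both columns pool the replicates, and leaving out each replicate was not run for the same reason. Under 50 reads per library in both genotypes were found at 2 regions, both in Slit3, with differences of 1.19 and 1.02. Their large counting errors come on top of variation between cell lines, which was not measured.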
